A study of Mus musculus with 6 samples.

Results

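The immunity-related GTPases described here are 6 mouse genes, Irgm1, Irgm2, Igtp, Iigp1, Tgtp1 and Tgtp2, chosen by gene symbol from a deposited table of 24752 genes, with 1 row found for each. Their RNA was measured in bone marrow-derived macrophages (BMDMs), cells grown for 7 days from the marrow of mice aged 8 to 10 weeks and kept in macrophage colony-stimulating factor (M-CSF, 10 ng/mL). The 3 groups held 2 libraries each, named B and C after the labels. Glul_LPS libraries were labelled as overexpressing Glul, the gene of glutamine synthetase, and as treated with LPS; LPS libraries were treated with LPS; control libraries were labelled control. LPS is lipopolysaccharide, from the outer membrane of Gram-negative bacteria, which macrophages detect through Toll-like receptor 4; the dose was 100 ng/ml and the exposure 3 h. Lentiviral vectors, control or Glul, had been applied for 36 h before that; whether the LPS and control libraries carried a vector is not stated. There was no Glul group without LPS. Neither the mouse strain nor any pooling of animals is given in the labels, and nothing in them says that libraries B and C were separate cultures or animals. A p-value therefore compares a difference with a spread between libraries that may be technical only.

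Immunity-related GTPases are large GTP-binding proteins that interferons switch on inside the cell. In mice they defend cells against parasites and bacteria that live in membrane-bound vacuoles, such as Toxoplasma gondii and Chlamydia. Effector members (the GKS class) gather on the vacuole and break its membrane, while regulator members (the GMS class) sit on the cell's own membranes and hold the effectors in their inactive state. Irgm1, Irgm2 and Igtp (also called Irgm3) are the regulators. Iigp1 (Irga6) and the near-identical pair Tgtp1 and Tgtp2 (Irgb6) are effectors.

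The classes are named after the motif that grips the nucleotide's phosphates. The stretches of 24 bases that encode it are shown because they separate the regulators from the effectors Tgtp1 and Tgtp2. They are read on the coding strand, 5′ to 3′, from GENCODE M21 transcripts of GRCm38 on chromosome 11. Capitals mark the codon of the letter that tells the class names apart, ATG for methionine in the regulators and AAG for lysine in Tgtp1 and Tgtp2. Other bases of the stretch differ as well.
Irgm1: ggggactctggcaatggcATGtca
Irgm2: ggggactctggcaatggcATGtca
Igtp: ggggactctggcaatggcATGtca
Tgtp1: ggggaaacaggcgcagggAAGtcc
Tgtp2: ggggaaacaggcgcagggAAGtcc
The 3 regulators had the same 24 bases, and so did Tgtp1 and Tgtp2. The sequence of Iigp1 is not shown.

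Promoters of 5 members are shown because all 5 held a match to the core of the interferon-stimulated response element (ISRE), a short sequence found in many interferon-induced promoters. Each line gives the 120 bases that end just before the RefSeq start (GRCm38.p6), read on the gene's strand, 5′ to 3′. For Irgm1, Irgm2 and Tgtp1 the stretch lies inside the gene span given further below, so distances to the start depend on the start used. Capitals mark the ISRE core, searched as 2 copies of GAAA with any 2 bases between them, and the core of the gamma-activated site, TTCNNNGAA, a sequence found in promoters that interferon gamma switches on. Both were searched on both strands over the whole window of 250 bases before and 50 after the start, and the matches to the 2 cores did not overlap in the stretches shown.
Irgm1, chr11:48871421-48871540, minus strand: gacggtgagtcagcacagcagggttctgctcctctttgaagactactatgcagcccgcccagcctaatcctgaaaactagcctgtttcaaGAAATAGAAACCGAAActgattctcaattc
Irgm2, chr11:58214857-58214976, plus strand: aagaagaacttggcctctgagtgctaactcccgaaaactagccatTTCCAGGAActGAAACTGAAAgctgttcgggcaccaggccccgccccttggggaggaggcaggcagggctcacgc
Igtp, chr11:58199436-58199555, plus strand: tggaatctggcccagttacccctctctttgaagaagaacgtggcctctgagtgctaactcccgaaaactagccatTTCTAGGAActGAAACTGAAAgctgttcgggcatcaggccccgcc
Tgtp1, chr11:48992247-48992366, minus strand: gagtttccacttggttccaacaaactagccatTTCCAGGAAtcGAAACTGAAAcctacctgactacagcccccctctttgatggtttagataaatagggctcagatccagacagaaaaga
Tgtp2, chr11:49064213-49064332, minus strand: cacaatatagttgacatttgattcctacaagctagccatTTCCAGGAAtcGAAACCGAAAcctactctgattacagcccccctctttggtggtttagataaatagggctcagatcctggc
An ISRE core was present in 5 of 5 member windows and in 3.44% of all 32851 RefSeq windows. It began between 24 and 77 bases before the start, and Irgm1 held 2 overlapping copies. The gamma-activated core was present in 4 of 5 member windows, all but that of Irgm1, and in 8.30% of all windows. In those 4 promoters it began 11 bases before the ISRE core, with 2 bases between them. Among 6 other family genes with a window, 3 held an ISRE core (Gm12185, Gm12250 and 9930111J21Rik1) and 2 a gamma-activated core (Gm12185, with the same 11-base spacing, and Gm12250). Ifi47, Gm5431 and 9930111J21Rik2 held neither in this window, and their RNA rose with LPS. These genes are relatives, so shared letters in their promoters are not independent of each other, and a match is a description of the sequence.

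Values are FPKM as deposited (fragments per kilobase of exon, scaled by the total of the library). Being per length, they may be compared between genes, with a limit for genes that share much sequence, such as Tgtp1 and Tgtp2. Library totals recovered from the table lay between 15649765 and 18691669 fragments. The 5 members whose fragments could be recovered rested on 225 to 16923 fragments per library in the Glul_LPS and LPS groups and on 3 to 1218 in control; for Iigp1 the fragments were not recovered. Changes are differences of log2(FPKM + 1) from one limma fit of all 3 groups, with the Benjamini-Hochberg adjustment over the 10962 genes that had at least 1 FPKM in at least 2 libraries. All 6 members passed that filter, and "rose" or "fell" means an adjusted p under 0.05. Macrophage genes were high throughout: 8 macrophage markers summed to 17584 and 18830 FPKM in Glul_LPS B and C, 15073 and 16214 in LPS libraries B and C, and 21243 and 20645 in control B and C. Over the 6 libraries, 7 neutrophil markers summed to 6.98 to 11.4 FPKM and 7 T and NK cell markers to 7.90 to 15.0 FPKM, most of it Cd4 (mean 10.1). Among the neutrophil markers S100a8 was the highest (mean 6.12 FPKM). S100a9 had 1.58 and 0.734 FPKM in Glul_LPS, 3.21 and 3.70 in LPS and 2.66 and 3.76 in control, and Ngp had 0.240 and 0.105 in Glul_LPS, 1.27 and 0.909 in LPS and 0.876 and 1.46 in control. Both were lower in Glul_LPS than in LPS without passing the threshold (adjusted p = 0.0781 and 0.0779). The B cell and dendritic cell lists, of 5 genes each, summed to at most 1.83 and 1.92 FPKM; Cd79b was highest in control (1.61 FPKM in both libraries), and Xcr1 had 1.09 and 1.30 FPKM in LPS, against 0.120 and 0.117 FPKM in control. The lowest of each list were Ly6g (mean 0.0113 FPKM), Cd3e (0.0280), Pax5 (0.00346) and Flt3 (0.0124). The part of other cells in the results was not tested. Glul, the gene named as overexpressed, stood at 37.2 and 37.7 FPKM in the libraries labelled Glul_LPS, 30.6 and 33.4 FPKM in LPS and 140 FPKM in both control libraries. Its change between Glul_LPS and LPS, 0.22, did not pass the threshold (SE 0.05, adjusted p = 0.122). Gene positions in the table are on GRCm38.

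LPS against control asked how the endotoxin changed these genes. All 6 members rose, beside 17.1% of all tested genes that rose, and in each member both LPS libraries stood above both control libraries, a pattern seen in 19.5% of tested genes. Their median log2 change was 4.0, while the median tested gene was 0.50 lower with LPS. Relative to that median gene, the members' log2 changes ran between 3.44 (Tgtp1) and 6.33 (Iigp1). In bulk RNA a larger share of expressing cells and more RNA per cell cannot be told apart. Among the 6 members, the regulators were already present in control cells, and the 3 effectors began from lower levels. This does not hold for the whole effector class, as Ifi47, an effector outside the 6, had 14.1 and 13.1 FPKM in control.

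Irgm1 (ENSMUSG00000046879, chr11:48861968-48871683, minus strand), a regulator found on Golgi and lysosomal membranes, had 175 and 170.3 FPKM in LPS libraries B and C, against 11.2 and 10.3 FPKM in control B and C. Its log2 change was 3.88 (SE 0.05, adjusted p = 8e-08), a 16-fold difference of the means. Irgm2 (ENSMUSG00000069874, chr11:58199618-58222782, plus strand), a Golgi-associated regulator, had 149.9 and 146 FPKM in LPS libraries B and C, against 11.1 and 10.7 FPKM in control. This was the smallest fold among the 6 members, 13.6 (log2 change 3.65, SE 0.05, adjusted p = 8e-08). Igtp (ENSMUSG00000078853, chr11:58199556-58207591, plus strand), the regulator of the endoplasmic reticulum and lipid droplets, had 174 and 163 FPKM in LPS, against 8.52 and 8.93 FPKM in control (19.3-fold, log2 change 4.12, SE 0.06, adjusted p = 8e-08). Replicates of these 3 genes lay close together, and no LPS value came near a control value. The annotated exons of Igtp and Irgm2 overlap on the same strand over 8.01% and 4.39% of their bases, so a small part of their reads could not be split by position.

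Iigp1 and Tgtp2, both effectors, had larger log2 changes than any regulator, with 95% intervals that did not reach those of the regulators. Iigp1 (ENSMUSG00000054072, chr18:60376029-60392627, plus strand), which coats the vacuole, had 139 and 131 FPKM in LPS libraries B and C, against 1.29 and 1.497 FPKM in control B and C. Its means differed 97.0-fold (log2 change 5.83, SE 0.12, adjusted p = 2.7e-07), and only 0.192% of tested genes had a larger log2 change. Tgtp2 (ENSMUSG00000078921, chr11:49057194-49064206, minus strand) had 125.7 and 119 FPKM in LPS, against 2.35 and 1.75 FPKM in control (59.8-fold, log2 change 5.35, SE 0.10, adjusted p = 1.87e-07). Tgtp1 (ENSMUSG00000078922, chr11:48985327-48994172, minus strand) was much lower, with 7.46 and 7.13 FPKM in LPS, against 0.0501 and 0.108 FPKM in control. The control values of Tgtp1 rested on 3 and 6 fragments, so its log2 change of 2.94 (SE 0.09, adjusted p = 1.23e-06) is set by the pseudocount, and with a pseudocount of 0.1 it was 5.39.

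How reads were divided between Tgtp1 and Tgtp2 is uncertain. Of all stretches of 50 bases in Tgtp1 transcripts, 79.4% also occur in Tgtp2, and 85.8% of those of Tgtp2 occur in Tgtp1. The handling of reads that match several genes is not given in the sources used here. If reads that match both genes were left out, both levels and their sum would be too low. Summed over both genes, the level was 105 and 101 FPKM in Glul_LPS B and C, 133 and 127 FPKM in LPS libraries B and C, and 2.40 and 1.86 FPKM in control B and C. The sum separates all 3 groups without overlap.

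**Figure D1:**
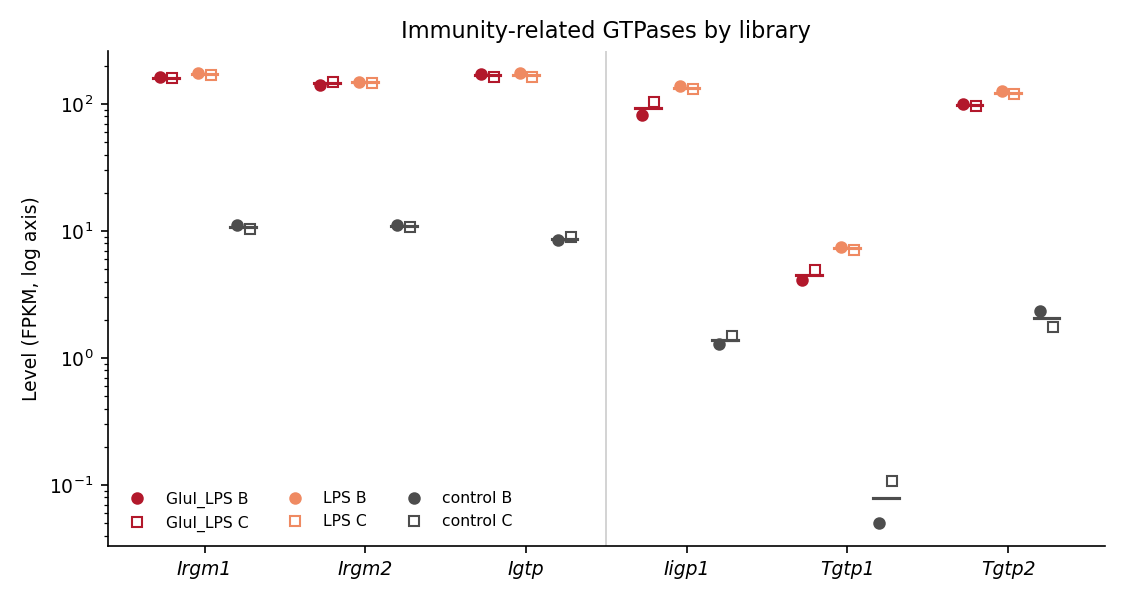
Level of each gene in each library (FPKM, log axis), regulators left and effectors right of the grey line; filled circles are replicate B, open squares replicate C, short bars the mean of the 2 libraries. Glul_LPS and LPS libraries stand far above control in every gene, and in Iigp1, Tgtp1 and Tgtp2 both Glul_LPS libraries lie below both LPS libraries.

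In Glul_LPS the order by level was Igtp (168 ± 5.18 FPKM), Irgm1 (161 ± 1.27), Irgm2 (146 ± 5.31), Tgtp2 (98.6 ± 3.14), Iigp1 (92.9 ± 15.9) and Tgtp1 (4.52 ± 0.565; SD, n = 2 here and in the next sentences). Tgtp2 and Iigp1 overlapped, and the other neighbours did not. In LPS it was Irgm1 (173 ± 3.19 FPKM), Igtp (169 ± 8.01), Irgm2 (148 ± 2.47), Iigp1 (135 ± 5.85), Tgtp2 (123 ± 4.40) and Tgtp1 (7.30 ± 0.230), and there Irgm1 and Igtp overlapped. In control it was Irgm2 (10.9 ± 0.280 FPKM), Irgm1 (10.8 ± 0.621), Igtp (8.73 ± 0.290), Tgtp2 (2.05 ± 0.425), Iigp1 (1.39 ± 0.150) and Tgtp1 (0.0790 ± 0.0410), with Irgm2 and Irgm1 overlapping. The 3 regulators thus led in every group, and Tgtp1 was last in every group. The places of Tgtp1 and Tgtp2 depend on how reads that match both were counted, which is not given.

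Glul_LPS against LPS addressed how cells labelled as overexpressing Glul differed from other LPS-treated cells, with the limit that no difference in the Glul transcript passed the threshold. In the limma fit 0 of 6 members passed, beside 1.1% of all tested genes (0.547% higher and 0.556% lower). At an unadjusted p under 0.05 there were 3 members, the 3 effectors, beside 17.5% of all tested genes in either direction and 7.09% in the lower direction. In limma voom on recovered fragments, an alternative chosen after seeing the data and run without Iigp1, 2 members were lower, Tgtp1 and Tgtp2. The regulators differed little between these libraries. Their intervals were narrow but rest on a spread between libraries that may be technical only.

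Iigp1 had 81.7 and 104 FPKM in Glul_LPS B and C, against 139 and 131 FPKM in LPS libraries B and C. Both Glul_LPS libraries were below both LPS libraries, and the Glul_LPS replicates were further apart than those of any other member in that group. The log2 change of Iigp1 was −0.54 (SE 0.12, 95% interval −0.82 to −0.26, adjusted p = 0.0912), and with only genes of a mean of at least 5 FPKM tested it passed (adjusted p = 0.0379). Over all alternatives its adjusted p lay between 0.0379 and 0.327.

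Tgtp1 had 4.12 and 4.92 FPKM in Glul_LPS B and C, against 7.46 and 7.13 FPKM in LPS libraries B and C. Its log2 change, −0.59 (SE 0.09, 95% interval −0.81 to −0.37, adjusted p = 0.0512), was just short of the threshold and crossed it after median centring (adjusted p = 0.0464), with a robust spread (adjusted p = 0.041) and in voom (adjusted p = 0.0011), in a range of 0.0011 to 0.242 over the alternatives. Tgtp2 had 100.8 and 96.4 FPKM in Glul_LPS, against 125.7 and 119 FPKM in LPS (log2 change −0.31, SE 0.10, 95% interval −0.54 to −0.08, adjusted p = 0.183). It passed in voom (adjusted p = 0.00552), in a range of 0.00552 to 0.463. All 3 effectors kept a negative change in each alternative run.

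Irgm1 had 162 and 160.5 FPKM in Glul_LPS B and C, against 175 and 170.3 FPKM in LPS libraries B and C, a log2 change of −0.10 (SE 0.05, 95% interval −0.22 to 0.03, adjusted p = 0.411). Irgm2 had 143 and 150.1 FPKM in Glul_LPS, against 149.9 and 146 FPKM in LPS (log2 change −0.02, SE 0.05, 95% interval −0.14 to 0.10, adjusted p = 0.893). Igtp had 172 and 165 FPKM in Glul_LPS, against 174 and 163 FPKM in LPS (log2 change −0.0017, SE 0.06, 95% interval −0.14 to 0.13, adjusted p = 0.994). The groups overlapped for Irgm2 and Igtp, whose sign also changed with the scaling, and did not overlap for Irgm1. In total 4 of 6 members had both Glul_LPS libraries below both LPS libraries, beside 19.3% of tested genes.

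**Figure D2:**
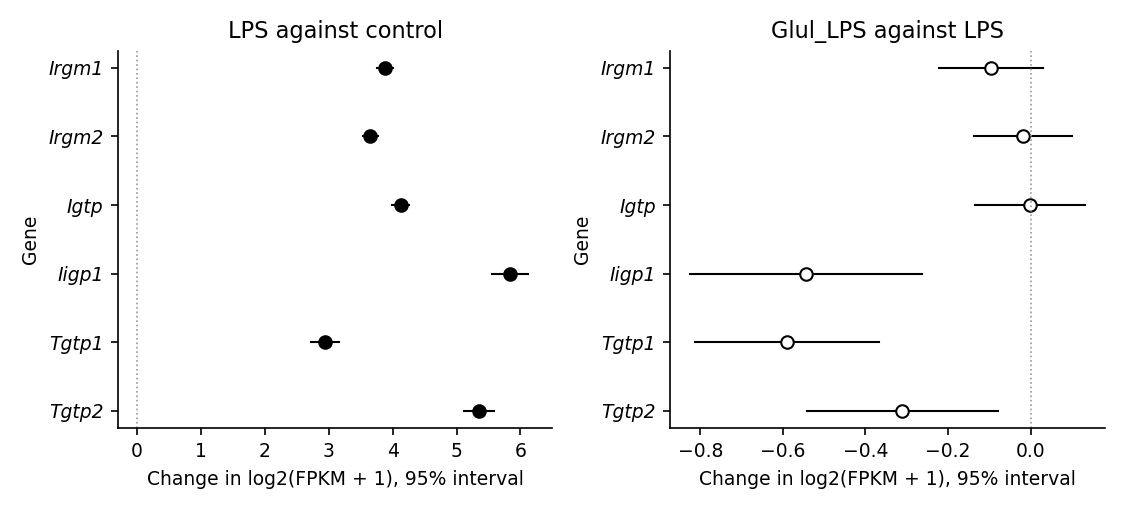
Change in log2(FPKM + 1) of each gene with its 95% interval, LPS minus control left and Glul_LPS minus LPS right; filled points passed an adjusted p of 0.05, and the horizontal scales differ. All 6 genes passed on the left and none on the right, where the intervals of the 3 effectors lie below 0 and those of the 3 regulators span it.

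The ratio of the 3 effectors to the 3 regulators among the 6 members was read within each library, where a common scaling cancels. It does not cover the whole effector class. Their summed FPKM over that of the regulators was 0.391 and 0.432 in Glul_LPS B and C, 0.546 and 0.537 in LPS libraries B and C, and 0.119 and 0.112 in control B and C. The 3 groups did not overlap. The size of the ratio depends on how reads that match both Tgtp1 and Tgtp2 were counted, which is not given. An exact two-sided permutation test of 2 against 2 libraries cannot go below p = 0.333, and it gave p = 0.333 for Glul_LPS against LPS and for LPS against control. With the abundant effectors Ifi47 and Gm12250 added, a choice made after values were seen, the ratio was 1.49 and 1.55 in Glul_LPS, 1.73 and 1.75 in LPS and 0.793 and 0.756 in control, so its size depends on which effectors are counted. The regulators summed to 477 and 475 FPKM in Glul_LPS, 499 and 479.8 FPKM in LPS and 30.8 and 30.0 FPKM in control. The effectors summed to 187 and 205 FPKM in Glul_LPS, 272 and 257 FPKM in LPS and 3.68 and 3.35 FPKM in control. Iigp1 made up 12.3% and 15.3% of the summed FPKM of all 6 genes in Glul_LPS, 18.04% and 17.75% in LPS and 3.72% and 4.49% in control.

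**Figure D3:**
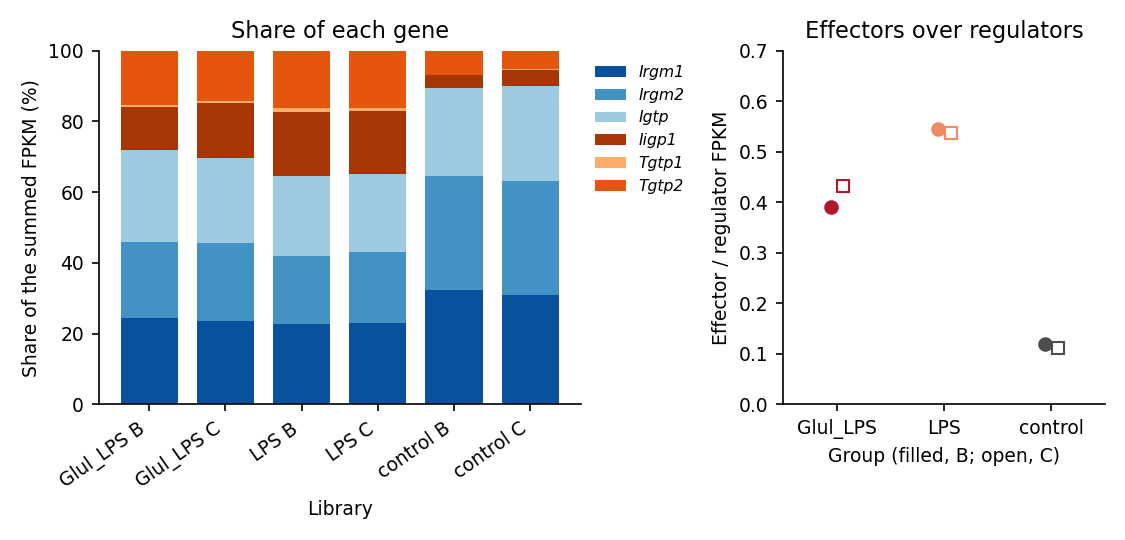
Left, share of each gene in the summed FPKM of the 6 genes, by library, regulators in blue and effectors in orange; right, effector FPKM over regulator FPKM in each library. The ratio lies at 0.391 and 0.432 in Glul_LPS, 0.546 and 0.537 in LPS, and 0.119 and 0.112 in control.

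**Figure D4:**
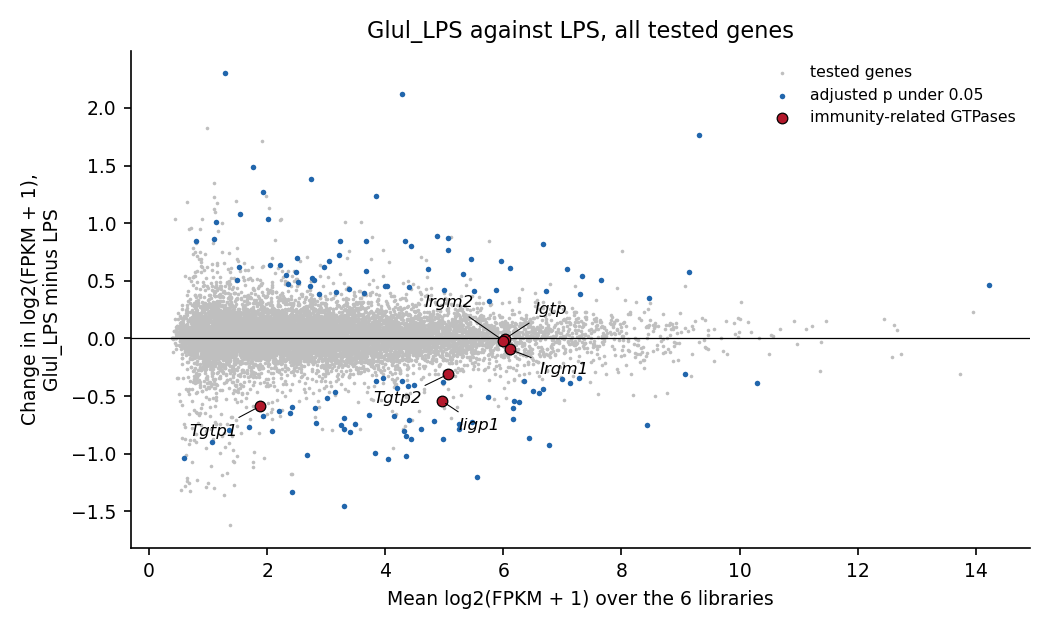
Change in log2(FPKM + 1) between Glul_LPS and LPS against the mean log2(FPKM + 1) over 6 libraries for all 10962 tested genes (grey), those with an adjusted p under 0.05 (blue) and the 6 immunity-related GTPases (red). Irgm1, Irgm2 and Igtp lie close to 0, and Iigp1, Tgtp1 and Tgtp2 lie at −0.54, −0.59 and −0.31.

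Glul_LPS against control shares the control libraries with the first comparison and the Glul_LPS libraries with the second. All 6 members rose, beside 16.9% of tested genes that rose. The log2 changes were 3.79 for Irgm1, 3.63 for Irgm2, 4.12 for Igtp, 5.29 for Iigp1, 2.35 for Tgtp1 and 5.04 for Tgtp2, with adjusted p between 8.89e-08 and 3.18e-06. The value for Tgtp1 is again set by the pseudocount over control libraries of 3 and 6 fragments; it was 4.70 with a pseudocount of 0.1 and 5.78 in voom.

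Other genes of the family were found through a list of symbols and through the table's own domain column, which tags 19 rows with IIGP, the Pfam domain of these GTPases. Except for Irgc1 on chromosome 7, the tagged rows lay in 3 clusters. The first, on chromosome 11 from 48861968 to 49096974, held Irgm1, Tgtp1 and Tgtp2 among 9 tagged rows. Its 8 tested rows all rose with LPS, beside 17.1% of all tested genes. Ifi47 (Irgd), an effector, had 258 and 264 FPKM in Glul_LPS, 297 and 285 FPKM in LPS and 14.1 and 13.1 FPKM in control, the highest level in this cluster. Gm5431, whose best protein match in the table is an Irgb9-b8 tandem GTPase, had 52.2 and 56.7 FPKM in Glul_LPS, 67.3 and 60.6 FPKM in LPS and 6.90 and 6.38 FPKM in control. Gm12185, 9930111J21Rik1 and 9930111J21Rik2 rose by 2.07, 1.77 and 1.70 on the log2 scale with LPS, and 80.4% of the 50-base stretches of 9930111J21Rik1 also occur in 9930111J21Rik2. The pseudogene Gm12187 stayed under 0.19 FPKM in each library and was not tested.

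The second cluster, on chromosome 11 from 58187739 to 58222782, held Igtp, Irgm2 and Gm12250. RefSeq gives Gm12250 the synonym Irgb10, an effector, while the deposited table calls it a processed pseudogene. It had 267 and 269.9 FPKM in Glul_LPS, 292 and 299.6 FPKM in LPS and 6.72 and 6.20 FPKM in control (log2 change with LPS 5.32, SE 0.05, adjusted p = 2.82e-08). Within 100 kb of this cluster, 5 other genes were tested, and all 5 fell with LPS, by 0.41 to 1.12 on the log2 scale. Over all tested genes 68% fell with LPS, so those neighbours did as most genes did. Of 6 such neighbours of the first cluster 3 rose (Gm12188, Olfr56 and Psme2b) and 2 fell, and of 2 beside the third cluster, on chromosome 18, 1 rose (Smim3) and 1 fell. These neighbours were chosen after values were seen, and the exons of Gm12188 and Olfr56 overlap those of Ifi47.

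The third cluster, on chromosome 18 from 60212080 to 60442983, held Iigp1 and 5 more tagged rows. Gm4951 had 7.78 and 9.64 FPKM in Glul_LPS, 12.04 and 12.09 FPKM in LPS and 0.910 and 0.763 FPKM in control. Gm4841 had 0.787 and 0.878 FPKM in Glul_LPS, 0.963 and 1.13 FPKM in LPS and was listed at 0 in both control libraries. F830016B08Rik stayed under 0.72 FPKM. The pseudogenes Gm5970 and BC023105, named after their values were seen because the domain column tags them, rose with LPS by 3.87 and 2.30 on the log2 scale. Between Glul_LPS and LPS, Gm4951 and Gm5970 had changes of −0.44 (adjusted p = 0.111) and −0.52 (adjusted p = 0.0709), neither past the threshold. Of the 12 listed family genes beside the members, 8 were tested, among them Irgq, a distant relative that the domain column does not tag. With LPS 7 rose and 1 fell, beside 17.1% and 68% of all tested genes, and the median log2 change was 2.45. The 1 that fell was Irgq, at 3.23 and 3.51 FPKM in LPS, against 6.04 and 4.82 FPKM in control. With median centring or quantile normalization 0 fell. Between Glul_LPS and LPS 0 of 8 passed in limma (4 at an unadjusted p under 0.05, 1 lower in voom), with a median of −0.13, against 0.02 for all tested genes. Irgc1 reached at most 0.144 FPKM.

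**Figure D5:**
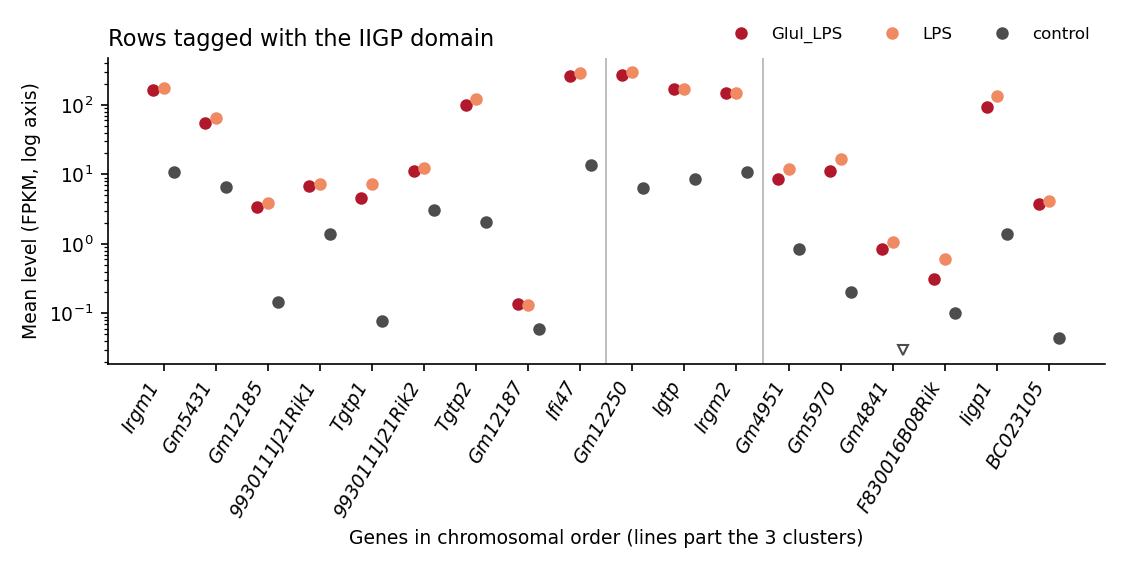
Mean level of the 18 rows of chromosomes 11 and 18 that the table tags with the IIGP domain (FPKM, log axis), in chromosomal order, with grey lines between the 3 clusters; the open triangle at the floor of the axis marks a row listed at 0 in both control libraries. Apart from the pseudogene Gm12187, Glul_LPS and LPS means stand well above control along all 3 clusters.

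Interferon signalling, which switches this family on, was followed in a list of 16 genes, of which 14 were tested. With LPS 11 rose and 2 fell, beside 17.1% and 68% of all tested genes, with a median log2 change of 1.21. The 2 that fell were the interferon gamma receptor genes Ifngr1 (log2 change −2.50) and Ifngr2 (−0.68). Ifngr1 had 24.3 and 27.5 FPKM in LPS, against 145 and 159 FPKM in control. Ifnb1, the type I interferon that LPS-treated macrophages release, had 14.6 and 16.5 FPKM in LPS, against 0.357 and 0.462 FPKM in control (log2 change 3.55, adjusted p = 2.29e-06). Ifng, the type II interferon, had at most 0.192 FPKM in any library. The transcription factor Irf1 had 175 and 189 FPKM in LPS, against 19.6 and 17.98 FPKM in control. Jak2, a receptor-associated kinase (log2 change 2.88), and Stat2 (2.67) also rose. Between Glul_LPS and LPS 0.556% of all tested genes fell and 0.547% rose, and of these 14 genes 2 fell and 0 rose. They were Ifnb1, at 6.42 and 4.77 FPKM in Glul_LPS, against 14.6 and 16.5 FPKM in LPS (log2 change −1.33, adjusted p = 0.0207), and Irf8, a transcription factor of macrophage development named here after its value was seen, at 90.9 and 72.3 FPKM in Glul_LPS, against 137 and 128 FPKM in LPS (log2 change −0.70, adjusted p = 0.0457). Irf1 had 154 and 139.5 FPKM in Glul_LPS, against 175 and 189 FPKM in LPS, without passing (log2 change −0.31, adjusted p = 0.109). The count of 2 became 0 without Glul_LPS C, LPS B or LPS C, 1 without either control library and 0 with no filter on low values. The part of these genes in the levels of the GTPases was not tested.

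Loading of the effectors onto vacuoles depends on the ATG8 conjugation machinery, shared with autophagy, and is followed by ubiquitin-linked factors. Of 14 such genes, all tested, 4 rose and 8 fell with LPS, with a median log2 change of −0.36, beside 68% of all tested genes that fell; with median centring 7 rose and 4 fell. The ubiquitin ligase Trim21 rose by 2.99, while Atg5 (−1.17), Map1lc3b (−1.15) and Gabarapl1 (−1.11) fell. Between Glul_LPS and LPS 0 of 14 passed in limma (5 at an unadjusted p under 0.05, 1 lower in voom), and the median was 0.03.

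The guanylate-binding proteins, the partner family of interferon-induced GTPases on the same vacuoles, had 9 of 11 genes tested. All 9 rose with LPS, beside 17.1% of all tested genes, with a median log2 change of 3.69. Gbp5 (6.69), Gbp4 (5.62), Gbp2 (4.23) and Gbp3 (4.19) led. Between Glul_LPS and LPS 2 of 9 fell, Gbp4 and Gbp8, beside 0.556% of all tested genes. Gbp4 had 31.4 and 32.7 FPKM in Glul_LPS, against 66.1 and 63.1 FPKM in LPS (log2 change −0.99, adjusted p = 0.00488). Gbp8, named after its value was seen, had 6.95 and 6.31 FPKM in Glul_LPS, against 12.1 and 11.2 FPKM in LPS (−0.73, adjusted p = 0.0243). The median of the 9 was −0.20, and the count of 2 became 1 without either Glul_LPS library and 0 without either LPS library.

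Likeness of pattern was measured as the root mean square difference of log2(FPKM + 1) over the 6 libraries, after centring each gene on its own mean, where the LPS step weighs most. Among the members, Irgm1 and Irgm2 were closest (0.10), followed by Irgm1 with Igtp (0.15), Irgm2 with Igtp (0.23) and Iigp1 with Tgtp2 (0.26). Pairs of a regulator and an effector differed by 0.52 (Irgm2 with Tgtp1) to 0.94, and those with Tgtp1 depend on the pseudocount. Without Tgtp1 the smallest such difference was 0.53 (Igtp with Tgtp2). The largest differences were between effectors, Iigp1 with Tgtp1 (1.37) and Tgtp1 with Tgtp2 (1.21), where the pseudocount flattens the LPS step of Tgtp1. Outside the 6 members, the 2 nearest tested genes were Isg20 (0.07) and Slfn8 (0.08) for Irgm1, Slfn5 (0.05) and Daxx (0.05) for Irgm2, and Dusp2 (0.09) and Ifi47 (0.10) for Igtp. For Iigp1 they were Fam26f (0.11) and Tnfsf15 (0.15), for Tgtp1 Gm4951 (0.09) and Gem (0.10), and for Tgtp2 Gm12250 (0.10) and Isg15 (0.12). Other family genes were therefore among the 2 nearest for Igtp, Tgtp1 and Tgtp2. The nearness of Tgtp1 and Gm4951 rests on the pseudocount, as their means differed 92.3-fold and 14.4-fold between LPS and control. The same limit holds for Gem, which had 10.7 and 11.6 FPKM in LPS, against 0.559 and 0.439 FPKM in control.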

How the data were processed

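The 6 BMDM libraries were made with a NEBNext Ultra kit, and an Illumina HiSeq read them, per the labels. The authors deposited 1 table of FPKM values; 6 further per-sample columns match no listed sample and stayed out. CASAVA, HISAT2 (2.1.0), HTSeq (0.6.0), DESeq2 and the build GRCm38 appear, without roles, in the submitters' processing notes. Step order, annotation, strand use and the treatment of reads that match several genes are not given in these sources.

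Values were analysed as log2(FPKM + 1) with limma 3.58.1 under R 4.3.3 (moderated two-sided test with a mean-variance trend), after a filter of at least 1 FPKM in at least 2 libraries. The fit was tested on simulated data. Fragments were recovered from FPKM and GENCODE M21 exon lengths, counted as whole within 0.01 of a fragment. Sequences come from RefSeq (GRCm38.p6) and GENCODE M21. Family promoters and coding motifs on chromosome 18, where Iigp1 lies, were left out by choice, so 5 members were searched. Genes named follow a rule written with the lists: members, listed family genes, up to 4 genes of each further list, and the 2 nearest patterns. Members and lists were chosen with earlier results of these data known. The replicate letter was tried as a block; pairing is weighed with the alternatives.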

Additional observations from a re-analysis of the deposited data

How the results depend on the processing

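With 2 libraries a group, only changes well above the replicate spread could pass. The rise of all 6 members in LPS and in Glul_LPS against control kept its direction and its call in each alternative (106 of 106 values in each comparison). For Glul_LPS against LPS, 96 of 106 values kept both, 5 crossed the threshold and 5 changed sign. The number of members past it, 0, became 1 with a filter at a mean of 5 FPKM (Iigp1), 1 after median centring and 1 with a robust spread (Tgtp1 in both), and 2 in voom on fragments, an alternative added once values were known. Irgm2 changed sign to 0.0033 after quantile normalization and 0.018 without Glul_LPS B, and Igtp to 0.0399 after quantile normalization, 0.0294 without Glul_LPS C and 0.0464 without LPS B. Leaving out 1 library gave −0.0555 to 0.018 for Irgm2 and −0.0499 to 0.0464 for Igtp. The order of Tgtp2 and Iigp1 in Glul_LPS, and of Irgm2 and Irgm1 in control, differed between the replicates.

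Over all tested genes, 121 passed for Glul_LPS against LPS, against 9 with no filter, 264 with a filter at a mean of 5 FPKM, 59 with only the 2 groups compared, 42 without the mean-variance trend and 544 in voom. Leaving out 1 library gave 1 to 57, with 38 and 5 without Glul_LPS B and C, 1 and 4 without LPS B and C, and 57 without either control library. With a filter at a mean of 5 FPKM fewer genes were tested, and 5055 (LPS against control) and 4977 (Glul_LPS against control) passed. In other cases the cause was not tested.

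With the replicate letter as a block, 0 of 6 members passed for Glul_LPS against LPS, Iigp1 at an adjusted p of 0.107 and Tgtp1 at 0.0746, and the block changed no member's call. Deviations of same-lettered libraries correlated at −0.047, −0.00043 and −0.021 across genes, so the letters are not taken to pair the libraries.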
